A study of Mus musculus with 12 samples.

Results

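The comparison asked how far the change in ribosome footprints after loss of the release factor eRF1 depends on the kinase Gcn2. It used the 8 footprint libraries among the 12 libraries of the study, and all 12267 of the 22034 genes in the footprint table that passed the filter on low counts. The measure throughout is the difference between the log2 footprint change in Gcn2 knockout cells and the log2 footprint change in wild-type cells, so that a negative difference means a lower change in the knockout. All groups came from ES-E14TG2a, a mouse embryonic stem cell line, with a dTAG degron on eRF1, the product of Etf1, and were kept in LIF with inhibitors of GSK3 and MEK. The 4 groups were wild type untreated, wild type given 500 nM dTAG-13 for 1 h, Gcn2 knockout untreated, and Gcn2 knockout given the same treatment, with 2 biological replicates each, A and B. Here wild type means intact Gcn2, since these cells carry the degron too. The labels name no vehicle control, no treated cells without the tag, and no number of knockout clones, so the knockout and the particular line that carries it cannot be told apart. Poly(A) RNA was sequenced in 4 wild-type libraries only, so no difference in RNA between the genotypes could be set beside the footprints.

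eRF1 recognises stop codons and releases the finished protein. Gcn2, encoded by Eif2ak4, is activated by uncharged tRNA and by stalled or collided ribosomes, and phosphorylates the initiation factor eIF2. Phosphorylated eIF2 lowers initiation on most mRNAs, while a few mRNAs with upstream open reading frames, Atf4 the best known of them, are translated more. ATF4 is a transcription factor for genes of amino acid uptake and synthesis and of tRNA charging. Ribosomal protein mRNAs form another group under translational control: they begin with a C followed by a run of pyrimidines, the terminal oligopyrimidine (TOP) tract, which makes them sensitive to mTORC1 through LARP1 and the 4E-BP proteins.

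Sequences are shown for ribosomal protein genes and ATF4 targets, the groups named in this background, although no single member of either was called below. Windows from 250 bases before to 50 bases after the annotated start were taken from RefSeq (GRCm38.p6), and 58 of the 78 tested ribosomal protein genes had one. A run of at least 8 pyrimidines that begins with C, read on the transcript strand and within 20 bases of the annotated start, was present in 30 of these 58 genes (51.7%), in 15.6% of the other tested genes and in 14.5% of all genes with a window. The 4 ribosomal protein genes with the largest differences among those with such a run are given as 30 bases each, with the run in capitals. Their positions are chr7:45128722-45128751 on the minus strand for Rpl13a, chr10:23787182-23787211 on the minus strand for Rps12, chr2:39005115-39005144 on the minus strand for Rpl35 and chr3:28805500-28805529 on the plus strand for Rpl22l1.
Rpl13a: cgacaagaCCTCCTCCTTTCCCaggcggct
Rps12: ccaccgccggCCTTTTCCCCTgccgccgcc
Rpl35: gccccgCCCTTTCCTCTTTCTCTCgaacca
Rpl22l1: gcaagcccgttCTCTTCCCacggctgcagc
Counting the annotated start as base 1, the run began at base 3 in Rpl13a, 9 in Rps12 and 4 in Rpl22l1, and 7 bases before the start in Rpl35. Annotated starts are approximate, and a run here is a match of letters, not a mapped TOP tract. The median difference was 0.54 in ribosomal protein genes with a run and 0.58 in those without, and -0.01 and 0.01 in the other tested genes.

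The second set shows the octamer TGATGCAA, or TTGCATCA on the other strand, which is the core of the C/EBP-ATF response element that ATF4 binds. It was found in 10 of the 37 tested ATF4 targets with a window, in 0.6% of the other tested genes and in 1.0% of all genes with a window. The 4 targets with the most negative differences among the 10 are given, with the octamer in capitals. Their positions are chr2:119351038-119351067 on the plus strand for Chac1, chr3:50443661-50443690 on the minus strand for Slc7a11, chr11:20332699-20332728 on the minus strand for Slc1a4 and chr8:94386306-94386335 on the plus strand for Herpud1.
Chac1: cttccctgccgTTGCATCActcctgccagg
Slc7a11: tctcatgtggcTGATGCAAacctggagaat
Slc1a4: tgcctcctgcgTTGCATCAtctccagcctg
Herpud1: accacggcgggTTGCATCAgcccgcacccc
The median difference was -0.39 in ATF4 targets with the octamer and -0.31 in those without it.

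Counts of Eif2ak4 itself followed the labels. They were 555 and 527 in untreated and 256 and 465 in treated wild-type libraries, and 44, 40, 36 and 78 in the knockout libraries. Relative to library size, the log2 difference of the knockout from wild type was -3.58 when untreated and -2.99 when treated. In what follows, CPM are footprint counts scaled to a common library size. Rises, falls and differences are therefore relative to the other mRNAs, and a shift common to all of them would not show. Library totals ran from 7874804 counts, in wild type treated A, to 19691716. Summed footprints of 19 markers of naive pluripotent cells were 10667 to 11951 CPM across the 8 libraries, and those of 12 fibroblast markers were 8.33 to 17.9 CPM, with Postn and Prrx1 at 0 in every library. Primitive endoderm markers were 1143 to 1402 CPM in untreated and 1404 to 1668 CPM in treated wild-type libraries, against 1279 to 1319 and 1441 to 1614 CPM in the knockout. Markers of primed and early differentiating cells were 99.6 to 124 CPM in untreated and 136 to 146 CPM in treated wild type, against 96 to 112 and 111 to 119 CPM in the knockout. The treated libraries lay above the untreated ones in both genotypes for primitive endoderm and in wild type for primed markers, and the part of these markers in the results was not tested. The 12 markers of two-cell-like cells in the table summed to 0.25 to 0.946 CPM, with Zscan4e, Tcstv1, Duxf3 and Gm4340 at 0 in every library. In bulk samples, fewer cells of a type and fewer footprints per cell cannot be told apart.

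The footprint change differed between the knockout and wild-type lines beyond the threshold in 6 genes. Atf4, Ibtk, Msn and Atic had a lower change in the knockout, and Fth1 and Tle5 a higher one. They are 0.0489% of the genes tested with edgeR's quasi-likelihood test at a Benjamini-Hochberg adjusted p under 0.05. At an unadjusted p under 0.05 the difference was higher in the knockout for 589 genes (4.80%) and lower for 640 (5.22%). Among the 2454 genes with the highest counts the shares were 6.56% and 10.4%. Counts for the lists below are to be read beside these shares. Of the 6 genes, only Atf4 had a change past the threshold in wild type. The other 5 passed it in the knockout and not in wild type. The scatter shows the changes in both genotypes.

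**Figure D1:**
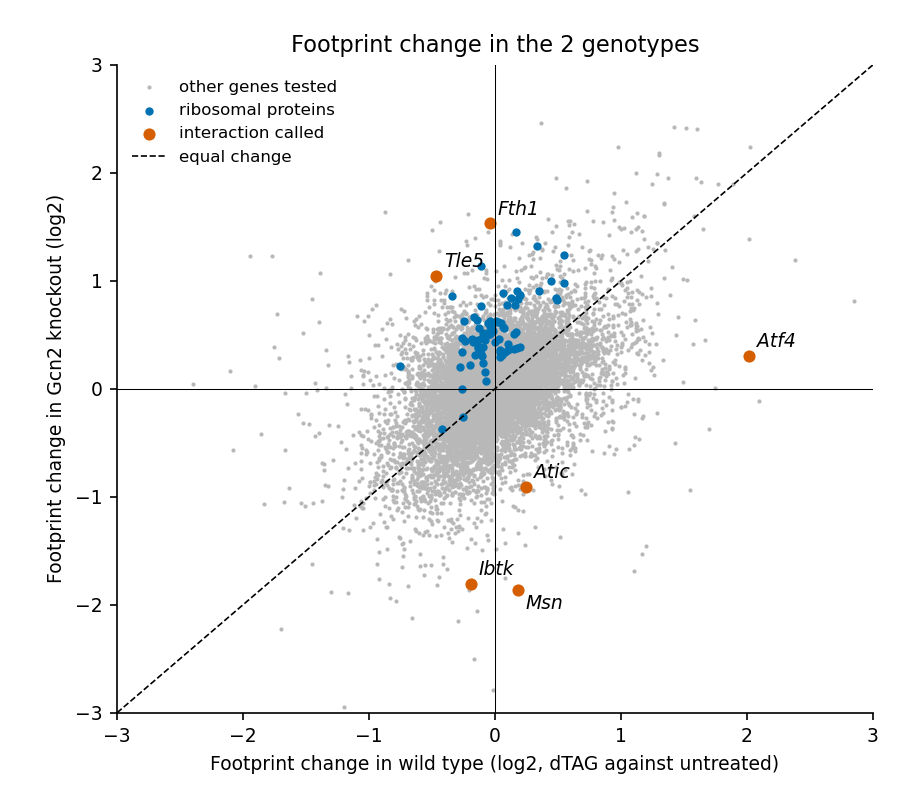
Log2 footprint change, dTAG-13 against untreated, in wild type (x axis) and Gcn2 knockout (y axis), for each gene tested. Orange points are the 6 genes with a called difference, blue points the ribosomal proteins, and 6 genes lie outside the axes. Atf4 lies to the right near 0 on the y axis, the other 5 called genes lie above or below 0 on the y axis, and the ribosomal proteins lie mostly above the dashed line of equal change.

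Atf4, on chr15:80255184-80257545, had 81.3 and 70.7 CPM of footprints in untreated wild type and 361 and 255 CPM after treatment. In the knockout it had 79.4 and 78.3 CPM untreated and 92.2 and 102.6 CPM treated. Both treated wild-type libraries thus stood far above the other 6, which lay close together. The change was 2.02 in wild type (SE 0.16, adjusted p = 0.000121), a 4.05-fold rise, and 0.30 in the knockout (SE 0.15, adjusted p = 0.247). The difference was -1.71 (SE 0.22, 95% interval -2.18 to -1.24, adjusted p = 0.0165). In wild type its RNA was 291 and 263 CPM untreated and 306 and 306 CPM treated, a log2 change of 0.15 that was not tested.

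Ibtk, on chr9:85687359-85750703, encodes an inhibitor of Bruton tyrosine kinase, and its mRNA is another with upstream open reading frames that is known from the stress response. It had 47.1 and 57.1 CPM in untreated and 44.3 and 46.6 CPM in treated wild type. In the knockout it went from 57.7 and 50.5 CPM to 14.3 and 16.6 CPM. The treated knockout libraries were the only low ones. Ibtk fell in the knockout (log2 change -1.80, SE 0.15, adjusted p = 6.96e-05) and had a change of -0.19 in wild type (adjusted p = 0.506). The difference was -1.61 (SE 0.21, adjusted p = 0.0165).

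Msn, on chrX:96096045-96168553, encodes moesin, which links the plasma membrane to actin. It had 56.6 and 90.3 CPM in untreated and 85.6 and 81.4 CPM in treated wild type, 81.5 and 72.8 CPM in the untreated knockout, and 22.1 and 20.5 CPM in the treated knockout. Again only the treated knockout libraries were low, with no overlap with the others. The difference of -2.04 (SE 0.26, adjusted p = 0.0165) came with a change of 0.18 in wild type (adjusted p = 0.645) and of -1.86 in the knockout (adjusted p = 0.000252).

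Atic, on chr1:71557156-71579403, encodes the enzyme of the last steps of purine synthesis. It had 222 and 251 CPM in untreated and 281 and 281 CPM in treated wild type, against 234 and 265 CPM untreated and 139 and 126 CPM treated in the knockout. The treated knockout libraries lay below every other one. The difference was -1.16 (SE 0.17, adjusted p = 0.0222), with 0.25 in wild type (adjusted p = 0.270) and -0.91 in the knockout (adjusted p = 0.000684).

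Fth1, on chr19:9980600-9985111, encodes the heavy chain of ferritin, the iron store, whose translation is known to be controlled by iron. It had 79.1 and 101.7 CPM in untreated and 73.8 and 101.6 CPM in treated wild type, and went from 70.5 and 72.3 CPM to 206 and 208 CPM in the knockout. The 2 treated knockout libraries held about the same value, above all others. The difference was 1.57 (SE 0.22, adjusted p = 0.0222), with -0.04 in wild type (adjusted p = 0.933) and 1.53 in the knockout (adjusted p = 0.000216). Fth1 has processed pseudogenes, and the sources used here do not say how reads shared between genes were treated, so its level is uncertain. The light chain gene Ftl1, which shares that property, had 0 or 1 counts per library and was not tested.

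Tle5, on chr10:81559444-81566371, encodes a short Groucho-related protein without the repeat domain of the other TLE corepressors. It had 60.2 and 52.4 CPM in untreated and 38.8 and 42.7 CPM in treated wild type, and 41.6 and 57.3 CPM in the untreated and 98.7 and 105.6 CPM in the treated knockout. The difference was 1.51 (SE 0.22, adjusted p = 0.0222), with -0.46 in wild type (adjusted p = 0.115) and 1.05 in the knockout (adjusted p = 0.00133). In its list of 6 TLE genes, Tle1, Tle2, Tle3, Tle4 and Tle6 had differences of -0.41, -0.19, -0.29, -0.19 and -0.20, none called.

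**Figure D2:**
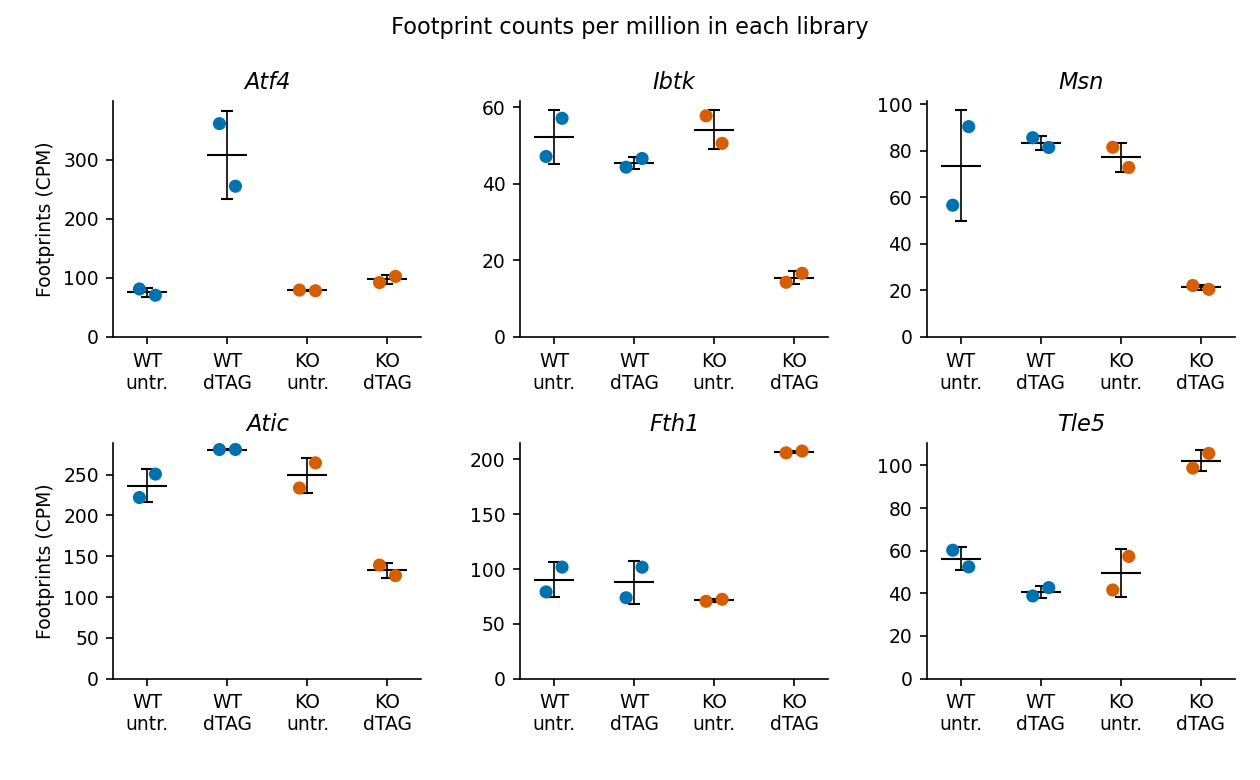
Footprints in CPM (y axis, from 0) of the 6 genes with a called difference, in the 4 groups. Points are the 2 libraries of a group, and the line and bars are their mean and SD. In Atf4 only treated wild type is high, at 255 and 361 CPM. In Ibtk, Msn and Atic only the treated knockout is low, and in Fth1 and Tle5 only the treated knockout is high.

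These calls were lost whenever a knockout library was dropped. With any 1 of the 4 knockout libraries left out, edgeR called 0 genes, with 658 to 1561 genes at an unadjusted p under 0.05, the lone library being assumed to vary like the other groups. With 1 wild-type library dropped, 4 genes were called without untreated A, 32 without untreated B, 3 without treated A and 18 without treated B. Atf4, Ibtk and Msn passed in all 4 of these, Fth1 in 3 and Atic and Tle5 in 2. Over all 8 libraries left out in turn, the difference ran from -1.98 to -1.44 for Atf4, -1.77 to -1.48 for Ibtk, -2.42 to -1.75 for Msn, -1.27 to -1.07 for Atic, 1.36 to 1.79 for Fth1 and 1.30 to 1.76 for Tle5. DESeq2 on all libraries called 116 genes, and limma with voom 18. With the replicate letter as a block edgeR called 39, and with a block within each genotype 733. All 6 were among the genes called in each of these.

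Stress mRNAs with upstream open reading frames had mostly lower changes in the knockout. Of 17 tested, 14 had a negative difference, 7 (41.2%) at an unadjusted p under 0.05 against 1 in the other direction, and 2 were called (Atf4 and Ibtk). Atf4 and Ibtk are among the 7, and the list was chosen with earlier results of these data known. The median difference was -0.61, beside 0.01 over all genes tested. It was nearer to 0, at -0.33, without treated wild type A and lay between -0.69 and -0.33 over all libraries left out. Ddit3, the transcription factor CHOP, rose in wild type by 2.38 (SE 0.49, adjusted p = 0.0177), with 1.19 in the knockout (adjusted p = 0.141), but the difference of -1.18 had an SE of 0.69 (adjusted p = 0.610). Ifrd1 rose in wild type by 0.93 (adjusted p = 0.0119) with -0.36 in the knockout (adjusted p = 0.264), and the difference was -1.29 (adjusted p = 0.114).

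Members of that list differed among themselves. Ppp1r15a, the subunit of the eIF2 phosphatase that is made under stress (GADD34), rose in both genotypes, by 0.88 in wild type (adjusted p = 0.0235) and by 0.84 in the knockout (adjusted p = 0.0188), and its difference was -0.04 (SE 0.28, adjusted p = 0.983). This sign turned in 3 of the 8 fits that left out 1 library, with values from -0.31 to 0.18. Ppp1r15b, the constitutive partner, had -0.29 in wild type and fell in the knockout (log2 change -0.90, adjusted p = 0.00104), a difference of -0.61 (adjusted p = 0.258), which is the median of the list. Pnrc2, a factor of mRNA decay, rose in both, by 1.42 in wild type (adjusted p = 0.0123) and by 2.42 in the knockout (adjusted p = 0.000395), and was the 1 member with a higher difference at an unadjusted p under 0.05, of 1.01 (adjusted p = 0.408). In wild type 7 of the 17 members rose and none fell, where 2.94% of all tested genes rose and 1.94% fell. In the knockout 3 rose and 3 fell, where 3.16% of all tested genes rose and 5.71% fell.

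Genes that ATF4 activates showed smaller differences, and none was called. Of 44 tested, 32 had a negative difference, 10 (22.7%) at an unadjusted p under 0.05 and none in the other direction. Among the 2454 genes with the highest counts 10.4% were lower at that threshold. The median of the ATF4 targets was -0.29, but it was 0.04 without treated wild type A, the library with the fewest counts. It ran down to -0.52 without untreated wild type A. Bcat1, which transaminates branched-chain amino acids, had a change of -0.11 in wild type (adjusted p = 0.726) and fell in the knockout (log2 change -0.92, adjusted p = 0.00155), a difference of -0.81 (adjusted p = 0.190). Aldh18a1, of proline synthesis, had 0.26 and -0.79 in the 2 genotypes and a difference of -1.05 (adjusted p = 0.220). Asns, the asparagine synthetase and a standard ATF4 target, had 0.26 in wild type and 0.09 in the knockout, a difference of -0.16 (SE 0.23, adjusted p = 0.870), with a sign that turned without untreated B or treated A of wild type.

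The kinases, phosphatases and exchange factors of eIF2 and the regulators of Gcn2 had a median difference of -0.06 over 28 genes (0.00835 without untreated knockout A, -0.18 without treated knockout A). At an unadjusted p under 0.05, 5 (17.9%) were higher and 2 (7.14%) lower. Eif2b2, a subunit of the eIF2 exchange factor, fell in the knockout (log2 change -1.01, adjusted p = 0.000584) and had -0.29 in wild type (adjusted p = 0.233), a difference of -0.73 (adjusted p = 0.190). Rplp1, a P-stalk protein, had the other sign, with a difference of 0.65 (adjusted p = 0.283) and a rise in the knockout of 0.83 (adjusted p = 0.00324).

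Etf1, the tagged gene, had a change of 0.15 in wild type (adjusted p = 0.552), 0.26 in the knockout (adjusted p = 0.201) and a difference of 0.11 (SE 0.17, adjusted p = 0.881). Footprint counts do not measure the amount of eRF1 protein. As counts per gene, they follow RNA level as well as translation and do not show where on an mRNA the ribosomes lay. The partner release factors Gspt1 and Gspt2 rose in wild type, by 0.80 (adjusted p = 0.00797) and 1.12 (adjusted p = 0.00557), and had 0.29 and 0.33 in the knockout (adjusted p = 0.230 and 0.288). Their differences were -0.51 (adjusted p = 0.420) and -0.79 (adjusted p = 0.318), and so were not shown to differ between genotypes. Over 11 termination and recycling factors the median difference was 0.07, and -0.00814 without treated wild type B. Over 34 genes of ribosome rescue and quality control it was -0.07 (0.00322 without untreated knockout A, -0.146 without untreated knockout B), with 3 (8.82%) higher and none lower at an unadjusted p under 0.05. Of these, Edf1, a sensor of collided ribosomes, had a difference of 0.73 (adjusted p = 0.173) and rose in the knockout by 0.67 (adjusted p = 0.00324), with -0.06 in wild type. Pelo, the rescue factor, had -0.04 (adjusted p = 0.968). Among 24 factors of nonsense-mediated decay, 4 (16.7%) were lower and 2 (8.33%) higher at an unadjusted p under 0.05. The helicase Upf1 rose in wild type by 0.45 (adjusted p = 0.0388) and had -0.14 in the knockout, a difference of -0.59 (adjusted p = 0.244).

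Aminoacyl-tRNA synthetases, which charge tRNAs, had lower changes in the knockout in 17 of 20 cytosolic members, 4 of them (20% of the list) at an unadjusted p under 0.05. Their median was -0.16, with -0.07 without untreated wild type B and -0.33 without treated wild type B. Yars had 245 and 196 CPM in untreated and 263 and 197 CPM in treated wild type, 279 and 266 CPM in the untreated and 139 and 126 CPM in the treated knockout. It fell in the knockout (log2 change -1.04, adjusted p = 0.00120), and the difference was -1.10 (adjusted p = 0.0894). Aars was the reverse case: it rose in wild type by 0.60 (adjusted p = 0.0197) and had 0.05 in the knockout (adjusted p = 0.876), a difference of -0.56 (adjusted p = 0.322). Of 17 mitochondrial synthetases, 15 had a negative difference, with a median of -0.15 (-0.305 without treated B and -0.0226 without treated A of wild type) and 1 gene, Iars2, at an unadjusted p under 0.05.

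Initiation factors had no common direction, with a median of -0.04 over 34 genes (-0.112 without treated and -0.0105 without untreated knockout A). At an unadjusted p under 0.05, 5 (14.7%) were lower and 2 (5.88%) higher. Eif5b, which joins the ribosomal subunits, had 28.2 and 39.6 CPM in untreated and 112 and 103 CPM in treated wild type, and 62.2 and 42.2 CPM in the untreated and 80.4 and 62.3 CPM in the treated knockout. Both treated wild-type libraries lay above the knockout ones, and the untreated wild-type pair below them. Eif5b rose in wild type by 1.66 (adjusted p = 0.00215) with 0.45 in the knockout (adjusted p = 0.200), a difference of -1.22 (adjusted p = 0.190). The scaffold Eif4g1 rose in wild type by 1.19 (adjusted p = 0.00177) with a difference of -0.75 (adjusted p = 0.255). Eif4ebp2, a 4E-BP that holds back cap-dependent initiation, moved the other way: 28.7 and 24.7 CPM became 15.7 and 22 CPM in wild type, and 24.1 and 25.2 CPM became 44.6 and 48.0 CPM in the knockout. It rose in the knockout by 0.91 (adjusted p = 0.00397) and had -0.48 in wild type (adjusted p = 0.127). Its difference of 1.39 (SE 0.23, adjusted p = 0.0656) missed the threshold. Among elongation factors, Eef1b2 had a difference of 0.74 and Eef2 of -0.44, neither called (adjusted p = 0.190 and 0.493).

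Ribosomal protein mRNAs had higher changes in the knockout almost throughout. Their share of all footprint counts was 16.3% and 13.6% in untreated and 14.7% and 12.7% in treated wild type, and 12.3% and 13.9% in the untreated and 16.9% and 16.6% in the treated knockout. The treated knockout libraries were the highest of the 8, just above untreated wild type A. Of 78 tested, 77 had a positive difference, all but Rpl28 at -0.01, and 48 (61.5%) were higher at an unadjusted p under 0.05 with none lower. No single one was called in the interaction. Among the 2454 genes with the highest counts 6.56% were higher at that threshold. The median difference was 0.55, made up of -0.04 in wild type and 0.50 in the knockout. It was 0.35 without treated wild type B and 0.70 without treated wild type A, and it was 0.54 in 46 large subunit and 0.57 in 32 small subunit proteins. In the knockout 32 of the 78 rose and none fell, and in wild type 1 rose and none fell. Of all tested genes, 3.16% rose and 5.71% fell in the knockout, and 2.94% rose and 1.94% fell in wild type. Many ribosomal protein genes have processed pseudogenes, so their single levels are uncertain.

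Rps20 had 1626 and 1195 CPM in untreated and 1274 and 1344 CPM in treated wild type, and 1021 and 1102 CPM in the untreated and 2420 and 2244 CPM in the treated knockout. Rps12, whose start is printed above, had 1923 and 1515 CPM, 1452 and 1260 CPM, 1396 and 1647 CPM, and 2821 and 2708 CPM in the same order. In both genes the treated knockout libraries lay above all others. Rps20 rose in the knockout by 1.14 (adjusted p = 0.000684) with a difference of 1.24 (SE 0.21, adjusted p = 0.0656). Rps12 rose in the knockout by 0.86 (adjusted p = 0.00324) with a difference of 1.20 (SE 0.21, adjusted p = 0.0656). Rpl12 had 0.33 in wild type and rose in the knockout by 1.32 (adjusted p = 0.000584), a difference of 0.99 (adjusted p = 0.184).

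Other mRNAs known to carry TOP tracts had a median of 0.09 over 24 genes, with 3 higher against 1 lower at an unadjusted p under 0.05. The median was 0.0039 without treated knockout A and 0.135 without untreated knockout B. Tpt1, the translationally controlled tumour protein, had a difference of 1.01 (adjusted p = 0.114) and rose in the knockout by 0.56 (adjusted p = 0.0298). Pabpc1, the poly(A)-binding protein, rose there by 0.57 (adjusted p = 0.0227) with a difference of 0.44 (adjusted p = 0.488). The mTORC1 pathway genes themselves had a median of 0.06 over 32 genes, with -0.021 without treated wild type B and 0.133 without untreated wild type B. Mitochondrial ribosomal proteins had 0.07 over 78 genes, with -0.0569 without treated wild type B and 0.148 without treated wild type A. Proteasome subunits had -0.03 over 32 genes, with -0.0998 without treated knockout A, and none past an unadjusted p under 0.05.

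**Figure D3:**
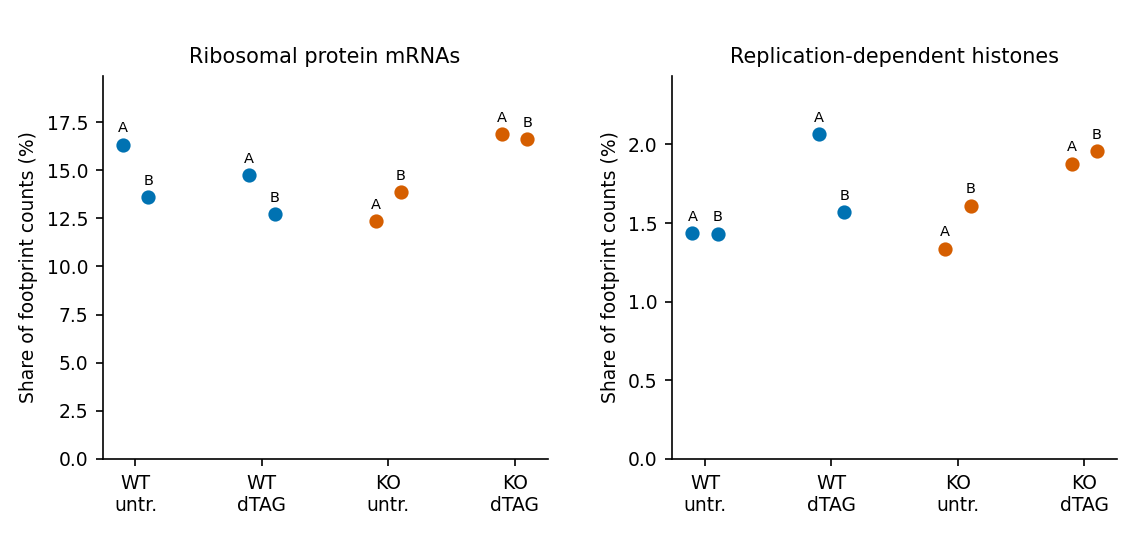
Share of all footprint counts (%, y axis from 0) taken by ribosomal protein mRNAs and by replication-dependent histones in each of the 8 libraries, with the replicate letter. The ribosomal protein share is 16.9% and 16.6% in the treated knockout and 12.3% and 13.9% in the untreated knockout. In wild type the treated libraries lie below the untreated library of the same letter for ribosomal proteins, and above it for histones.

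Replication-dependent histones, whose mRNAs lack poly(A) tails, held many risers in both genotypes. In wild type 23 of 58 rose and none fell, and in the knockout 36 rose and 2 fell, with median changes of 0.64 and 1.23. Of all tested genes, 2.94% rose and 1.94% fell in wild type, and 3.16% rose and 5.71% fell in the knockout. The median difference of the histones was 0.36, with 10 members (17.2%) higher and 2 (3.45%) lower at an unadjusted p under 0.05 and none called. It was 0.10 without treated wild type B and 0.62 without untreated knockout B. H2bc12 had 183 and 147 CPM in untreated and 317 and 249 CPM in treated wild type, and went from 127 and 145 CPM to 406 and 390 CPM in the knockout. It rose by 0.78 in wild type (adjusted p = 0.00981) and by 1.55 in the knockout (adjusted p = 0.000186), a difference of 0.77 (adjusted p = 0.233). The copies are near-identical in sequence, so single copies are uncertain.

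Genes of polyamine synthesis, whose antizymes are made by a ribosomal frameshift, held 3 higher (27.3%) and 1 lower (9.09%) of 11 at an unadjusted p under 0.05. The median was 0.21 (0.12 to 0.34 over libraries left out, the lowest without untreated knockout A and the highest without untreated knockout B). Odc1, the ornithine decarboxylase, had 192 and 206 CPM in untreated and 94.0 and 147 CPM in treated wild type, and 144 and 168 CPM in the untreated and 212 and 224 CPM in the treated knockout. It fell in wild type (log2 change -0.72, adjusted p = 0.0342) and had 0.48 in the knockout (adjusted p = 0.102), a difference of 1.20 (SE 0.24, adjusted p = 0.114). Azin1, the antizyme inhibitor, which also has an upstream open reading frame, had 0.33 and -0.30 in the 2 genotypes and a difference of -0.63 (adjusted p = 0.319). The antizyme Oaz1 rose in the knockout by 0.91 (adjusted p = 0.00155) and had 0.49 in wild type (adjusted p = 0.0609), a difference of 0.42 (adjusted p = 0.493).

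The neighbours of the called genes were looked at by list. Each list includes its called gene and was chosen with earlier results of these data known, so its counts are not separate support. Of 15 genes of the ERM proteins and the cortical cytoskeleton, Msn among them, 11 had a negative difference, 7 (46.7%) at an unadjusted p under 0.05. The median was -0.39. It was -0.19 without untreated wild type A and -0.58 without untreated wild type B. In wild type 6 of the 15 rose and in the knockout 1 rose and 1 fell. The shares of all tested genes were 2.94% for a rise in wild type, and 3.16% and 5.71% for a rise and a fall in the knockout. Tln1, the integrin adaptor talin, had 113 and 166 CPM in untreated and 398 and 355 CPM in treated wild type, and 183 and 148 CPM in the untreated and 237 and 231 CPM in the treated knockout. It rose in wild type by 1.43 (adjusted p = 0.00133) with 0.50 in the knockout (adjusted p = 0.0846), a difference of -0.93 (adjusted p = 0.219). Ezr, which encodes ezrin, a close relative of moesin, had 0.35 and -0.44 and a difference of -0.78 (adjusted p = 0.184).

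Of 17 enzymes of purine synthesis, 13 had a negative difference and 3 (17.6%) were lower at an unadjusted p under 0.05 (Atic, Prps2 and Shmt1). Their median was -0.19, with -0.11 without untreated knockout B. Prps2, which makes the sugar phosphate for purines, fell in the knockout (log2 change -1.47, adjusted p = 0.00324), a difference of -1.25 (adjusted p = 0.248), and Shmt1, of the folate cycle, had -0.54 (adjusted p = 0.255). Among 12 iron genes 7 had a positive and 5 a negative difference, and at an unadjusted p under 0.05 Fth1 was the 1 higher gene, beside 2 lower ones. Ncoa4, the receptor for ferritin breakdown, rose in wild type by 0.73 (adjusted p = 0.00673) with 0.27 in the knockout, a difference of -0.45 (adjusted p = 0.414). The RNA of Ncoa4 in wild type was 3.37 to 4.90 CPM, beside 125 to 244 CPM of footprints, and this gap was not tested. Pcbp1, which delivers iron to ferritin, had a difference of -0.44 (adjusted p = 0.414). The transferrin receptor Tfrc had a difference of 0.05. The median of the iron genes was 0.05, with -0.119 without untreated and 0.174 without treated wild type B.

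**Figure D4:**
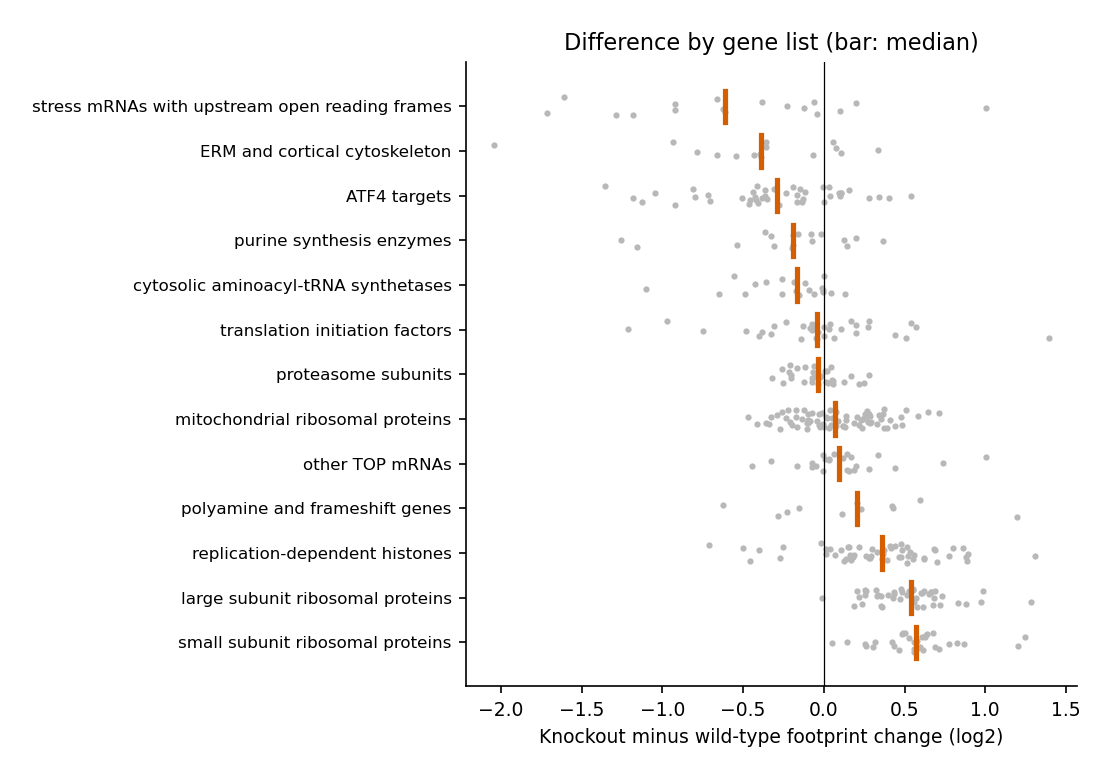
Difference between the knockout and wild-type log2 footprint change (x axis) for the members of 13 gene lists. Grey points are tested genes, spread vertically for sight only, and the orange bar is the median of the list. The medians run from -0.61 for stress mRNAs with upstream open reading frames to 0.57 for small subunit ribosomal proteins.

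Of the remaining lists, chaperones of the endoplasmic reticulum had a median difference of -0.08 over 24 genes, heat shock and cytosolic chaperones -0.01 over 23, p53 targets -0.02 over 20, glycolytic enzymes -0.03 over 16, selenoproteins 0.18 over 21, immediate early genes 0.09 over 20 and nuclear-encoded subunits of the respiratory chain 0.14 over 74. Most of these medians depended on single libraries. That of the endoplasmic reticulum chaperones was -0.294 without untreated knockout B and 0.183 without untreated knockout A, and that of the heat shock list -0.0859 and 0.00753 without the same libraries. The p53 targets had -0.33 without untreated and 0.223 without treated wild type A, and glycolytic enzymes -0.19 without untreated wild type B and 0.0655 without untreated wild type A. Selenoproteins had 0.0873 and 0.318 without untreated knockout A and B, immediate early genes -0.072 without untreated wild type A, and the respiratory chain 0.00688 without treated and 0.211 without untreated wild type B. Of the 74 respiratory chain genes, 53 had a positive difference and 21 a negative one. At an unadjusted p under 0.05, 4 (5.41%) were higher and 4 (5.41%) lower. Ndufb9 had a difference of 0.86 (adjusted p = 0.248). In succinate dehydrogenase, Sdhd fell in the knockout (log2 change -1.21, adjusted p = 0.000265) with a difference of -0.91 (adjusted p = 0.114). Sdha fell there too (log2 change -0.42, adjusted p = 0.0261) with a difference of -0.46 (adjusted p = 0.304). Of the 16 glycolytic enzymes, 1 (6.25%) was higher and 3 (18.75%) were lower at that threshold. Hexokinase Hk2 fell in the knockout (log2 change -0.48, adjusted p = 0.0431), with 0.45 in wild type (adjusted p = 0.0805) and a difference of -0.93 (adjusted p = 0.114). The higher one was Gapdh, with a difference of 0.36 (adjusted p = 0.480). The p53 target Ccng1 fell in wild type (log2 change -0.83, adjusted p = 0.0140) and had -0.06 in the knockout, a difference of 0.77 (adjusted p = 0.277). Markers of naive pluripotency had a median of -0.12 over 19 genes, those of primed cells -0.12 over 8, of primitive endoderm -0.29 over 12 and of fibroblasts 0.04 over 5. With 1 library left out, naive markers ran from -0.272 (without treated wild type B) to 0.0098 (without treated wild type A), primed markers from -0.369 (without untreated wild type B) to 0.065 (without untreated knockout B), and primitive endoderm markers from -0.405 (without untreated wild type B) to -0.148 (without untreated knockout A). Fibroblast markers ran from -0.351 without untreated wild type B to 0.463 without treated wild type B and kept their sign in 9 of 16 alternatives.

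Past the 6 called genes, the 8 with the smallest p in each direction, under the rule for named genes given below, had adjusted p from 0.0656 to 0.114 and did not pass. Higher in the knockout were Eif4ebp2, Rps20, Rps12, Mta1, Ap3s1, Rala, Cyb5r4 and Tpt1. Lower were Hadh, Rbm28, Cdk1, Gpat2, Acsf2, Kpna6, Rbpj and Pmm2. Cdk1, the mitotic kinase, fell in the knockout (log2 change -1.20, adjusted p = 0.000216) with -0.21 in wild type and a difference of -0.99 (adjusted p = 0.0656). Kpna6, a nuclear import receptor, fell in the knockout (log2 change -1.42, adjusted p = 0.000216) with a difference of -1.08 (adjusted p = 0.0813). Hadh, of fatty acid oxidation, fell there (log2 change -1.04, adjusted p = 0.000271) with a difference of -0.93 (adjusted p = 0.0656). The small GTPase Rala fell in wild type (log2 change -0.71, adjusted p = 0.0132) and had 0.34 in the knockout, a difference of 1.04 (adjusted p = 0.0844).

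Gpat2, an acyltransferase of lipid synthesis, and Mta1, a subunit of the NuRD complex, were the 2 genes called in opposite directions in the 2 genotypes. Gpat2 rose in wild type by 0.53 (SE 0.14, adjusted p = 0.0457) and fell in the knockout (log2 change -0.59, SE 0.14, adjusted p = 0.0214). Mta1 fell in wild type (log2 change -0.54, SE 0.14, adjusted p = 0.0427) and rose in the knockout by 0.57 (SE 0.14, adjusted p = 0.0216). It had 66.7 and 58.1 CPM, then 41.0 and 44.5 CPM, in wild type and 49.8 and 61.6 CPM, then 85.8 and 79.1 CPM, in the knockout. The differences of Gpat2 and Mta1 were -1.12 and 1.11 (both adjusted p = 0.0713). The wild-type RNA of Mta1 was 7.95 to 9.16 CPM, below its footprint CPM, and this gap was not tested.

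**Figure D5:**
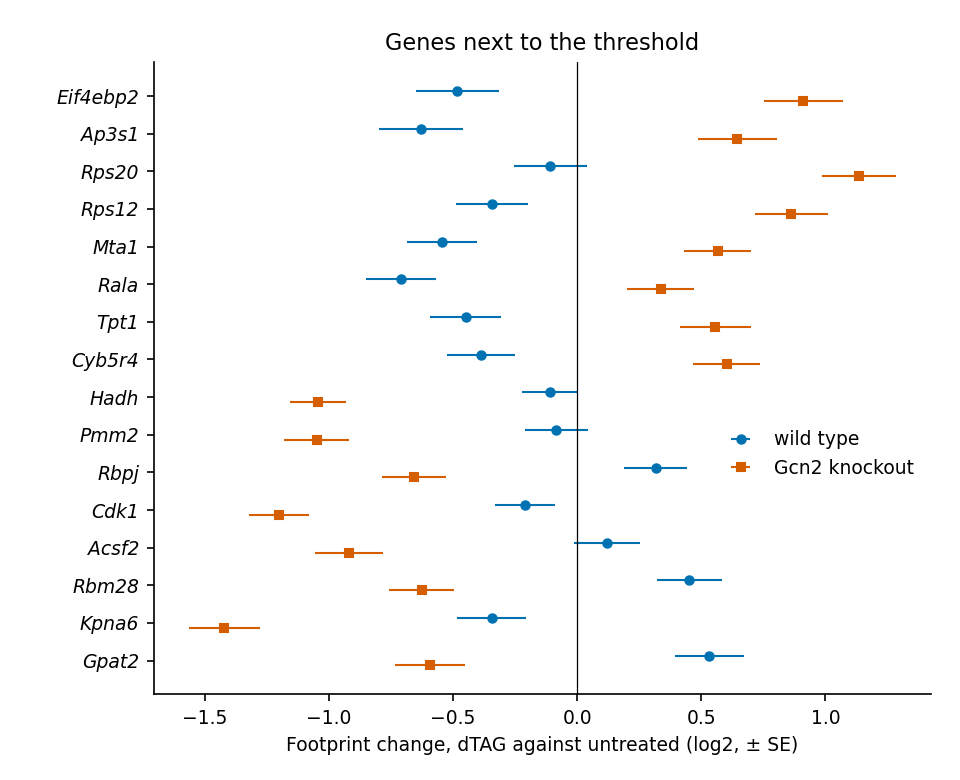
Log2 footprint change, dTAG-13 against untreated, with its SE (x axis) in wild type (circles) and Gcn2 knockout (squares) for 16 genes that did not pass. They are the 8 in each direction with the smallest p under the rule for named genes. The 8 upper genes have higher values in the knockout and the 8 lower genes have lower ones, and Gpat2 and Mta1 lie on opposite sides of 0 in the 2 genotypes.

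Genes that changed in both genotypes moved the same way in all but Gpat2 and Mta1. A total of 361 genes rose and 238 fell in wild type, and 388 rose and 701 fell in the knockout. Of these, 113 rose in both, which is 31.3% of the wild-type and 29.1% of the knockout risers, and 153 fell in both, 64.3% and 21.8%. These counts depend on single libraries. Genes called in wild type numbered 599 in all, but 197 without wild type untreated A, 237 without treated A, 334 without treated B and 305 without either treated knockout library. In the knockout they numbered 1089, but 430 without untreated A, 601 without untreated B, 241 without treated A and 215 without treated B. With the other genotype left out of the fit, 19 genes were called in wild type and 1893 in the knockout.

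Across the 8210 genes whose mean log2 CPM reached 3, the log2 changes taken from same-letter libraries had a Pearson correlation of 0.75 between A and B of wild type, 0.77 between A and B of the knockout, and 0.43 to 0.64 between a wild-type and a knockout change. These are descriptions across genes, which are not independent, and pairs within a genotype or across share no library. Of the 361 genes that rose in wild type, 314 had a lower change in the knockout, and of the 701 that fell in the knockout, 642 had a higher change in wild type. As these genes were chosen by 1 of the 2 values in the difference, that choice partly fixes the direction.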

How the data were processed

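Footprint and RNA values were raw counts per gene symbol, as deposited. Per the submitters' processing notes, CASAVA 1.4, cutadapt and HISAT2 2.1.0 were used with mm10, while the sources used here name no counting tool. Columns were matched to samples by label. For replicate B of the treated knockout the description names the column of A, and the letter B in the title was used instead.

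The 8 footprint libraries were fitted together in edgeR 4.0.16 (R 4.3.3). Genes passed filterByExpr (minimum count 10), and TMM scaling and robust quasi-likelihood fits by group were used (4 residual degrees of freedom). The interaction contrast was tested two-sided, with Benjamini-Hochberg adjustment over all 12267 genes and a threshold of 0.05. CPM use TMM library sizes. The 4 RNA libraries, 17462458 to 24256097 counts, were used as CPM without a test, and log2 RNA changes used a prior count of 2. With 2 replicates per group and 7874804 to 19691716 counts, precision was limited by replicate spread, which the single dispersion per gene shares over groups. The spread was unequal. Chi-square per degree of freedom between replicates was 24.8 in untreated and 13.8 in treated wild type, and 17.1 and 2.79 in the untreated and treated knockout. The treated knockout was the narrowest group, so the shared dispersion may understate the spread in both wild-type groups and in the untreated knockout. The code was tested on simulated counts.

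The members and the 35 gene lists were chosen with earlier results of these data known. Lists were described by counts and medians with no set test. Named genes were the called ones, then the 8 higher and 8 lower with the smallest p at a mean log2 CPM of at least 3 and an unadjusted p under 0.01, leaving out predicted genes, pseudogenes and mitochondrial genes, then 12 taken by symbol, and up to 3 per list at an unadjusted p under 0.05. Members quoted without a passing p beyond this rule (Tle genes, Tfrc, Rpl28 and genes whose starts are printed) were chosen after their values were seen. Mitochondrially encoded mRNAs and two-cell-like markers had no gene past the filter. Alternatives were DESeq2 1.42.0, voom of limma 3.58.1, other size factors, filters and robust settings, replicate letters as a block, each genotype alone, and each library left out. Promoter windows came from RefSeq (GRCm38.p6) and were matched by symbol.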

Additional observations from a re-analysis of the deposited data

Results flagged for a closer look

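In 6 genes the treatment effect differed between genotypes by the interaction test of edgeR, each at an adjusted p of 0.0165 or 0.0222. The knockout minus wild-type difference was -1.71 for Atf4, -1.61 for Ibtk, -2.04 for Msn, -1.16 for Atic, 1.57 for Fth1 and 1.51 for Tle5. In Atf4 the change passed the threshold in wild type only, and in the other 5 in the knockout only. No group of footprint libraries has more than 2 samples, so no sample could be looked at as an outlier.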

How the results depend on the processing

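Genes called in the interaction numbered 6 in the main analysis, with RLE size factors, without the robust option and at a minimum count of 50. They numbered 116 with DESeq2, 18 with voom and 192 without the filter on low counts, and all 6 were kept in each. With 1 library left out they ranged from 0 to 32. For the wild-type change, 599 genes became 1048 without the filter, 19 with the genotype fitted alone, and 197 to 659 with 1 library left out. For the knockout change, 1089 genes became 2009 with voom, 1658 without the filter, 1893 with the genotype alone, and 215 to 1353 with 1 library left out. The cause was not tested.

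With the letter as a replicate block, 39 genes were called in the interaction, 931 in wild type and 1564 in the knockout. With a replicate block within each genotype they were 733, 2109 and 3149. The labels state no shared batch for the letters, so the main fit did not treat them as pairs. Deviations of A from B correlated at 0.65 between untreated and treated wild type, 0.17 in the knockout, and -0.02 to 0.11 between genotypes. Spread that the wild-type letters share was therefore left in the error of the main fit, and the number of calls depends on this choice.

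Among the named genes and list medians, signs that turned with 1 library left out, given as ranges, were those of Etf1 (-0.0258 to 0.258), Ppp1r15a (-0.31 to 0.18), Asns (-0.418 to 0.0488) and Pelo (-0.12 to 0.0273), and of the medians of ATF4 targets (-0.52 to 0.0423), eIF2 kinases and regulators (-0.18 to 0.00835), ribosome rescue (-0.15 to 0.00322), immediate early genes (-0.072 to 0.10), naive pluripotency (-0.27 to 0.0098), termination factors (-0.00814 to 0.102), iron genes (-0.119 to 0.174), the mTORC1 pathway (-0.021 to 0.133), endoplasmic reticulum chaperones (-0.294 to 0.183), heat shock genes (-0.0859 to 0.00753), mitochondrial ribosomal proteins (-0.0569 to 0.148), glycolytic enzymes (-0.19 to 0.0655), p53 targets (-0.33 to 0.223), primed cells (-0.369 to 0.065) and fibroblasts (-0.351 to 0.463). Genes with few counts had large SEs: the median SE of the difference was 0.60 in the 2454 genes with the fewest counts and 0.18 in the 2454 with the most.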
